A study of Caenorhabditis elegans with 15 samples.

Results

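Sugar transporters and alpha-glucosidases were examined as a group of 10 genes among the 16196 genes of the deposited table of the nematode Caenorhabditis elegans. Each listed gene was found as 1 row whose protein annotation carries its name, and all 10 were found. They were fgt-1, the SWEET transporters swt-1, swt-3, swt-5, swt-6 and swt-7, and the alpha-glucosidases aagr-1, aagr-2, aagr-3 and aagr-4. RNA of whole worms of the wild type strain N2, which the labels place at the L4 larval stage, was sequenced in 15 libraries. The resveratrol group received sucrose, stearic acid and resveratrol, the sucrose-stearic acid group received sucrose and stearic acid, the stearic acid and sucrose groups received 1 of them each, and the control group received none, with 3 libraries per group. Sucrose was given at 400 mM. Stearic acid and resveratrol were each given at 500 μg/mL according to the methods of the study, whereas the labels write 500 mg/mL. A supplementary gene list of the study names yet another dose of resveratrol, in μM. Stearic acid came from a stock in ethanol and resveratrol from one in DMSO, and whether the control worms received matched amounts of these solvents is not given in the sources used here, so agent and solvent cannot be told apart. No group received another solute at the concentration of the sucrose. Sucrose as a sugar and the raised solute concentration of the medium therefore cannot be told apart either. All worms fed on the bacterium OP50, and the 3 control libraries serve every comparison with control, so those comparisons are not independent of each other. The paper calls the 3 libraries of a group biological replicates. Nothing in the labels ties a library to a separate culture, so the p-values measure the spread between these libraries.

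Sugars cross cell membranes through carrier proteins, many of which let them move down their gradient. FGT-1 is the worm relative of the mammalian GLUT glucose transporters. The SWEET proteins form another carrier family, best known from plants, where they release sugars from cells. Alpha-glucosidases cut glucose from the ends of alpha-linked sugars. The worm aagr genes belong to glycosyl hydrolase family 31, which in mammals holds the lysosomal acid alpha-glucosidase, the intestinal sucrase-isomaltase and the glucosidase of the endoplasmic reticulum that trims new glycoproteins. Relatedness of sequence, which was not examined here, places aagr-1 and aagr-2 near the lysosomal enzyme and aagr-3 and aagr-4 near the trimming enzyme. The deposited annotation has aagr-1 under starch and sucrose metabolism and under galactose metabolism, and aagr-3 and aagr-4 under N-glycan biosynthesis.

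On the WBcel235 assembly, swt-1 lies on chromosome IV from 307505 to 311236 and swt-3 on chromosome IV from 10778985 to 10780683. The other 3 SWEET genes lie on chromosome V, with swt-5 from 9501401 to 9504580, swt-6 from 13954356 to 13956176 and swt-7 from 5029319 to 5030815. The alpha-glucosidase genes are spread over 4 chromosomes, with aagr-1 on IV from 8366521 to 8375371, aagr-2 on II from 4914494 to 4925248, aagr-3 on V from 9725984 to 9729512 and aagr-4 on X from 460651 to 466899. The annotation used here has no gene of the name fgt-1, so its position is not given. Exons of swt-6 share 71 bases with R10D12.10, a gene on the opposite strand, and the use of strand in the counting is not stated. R10D12.10 had 32 to 60 counts in the 15 libraries, while swt-6 had at least 256 in each.

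Summed counts were similar in all libraries, between 19433436 and 21400063. The paper reports a lower share of mapped reads for the first sucrose-stearic acid, the second stearic acid and the first control library than for all others. The third control library stood apart from the other two control libraries on the second principal component of all genes, at 54.9 against 16 and 19.8, so counts of genes against control are also given without it. Of 37 markers of 7 tissues and germ cell types, 30 were found by name, and none of these was at 0 counts in any library. All 10 genes passed the filter on low counts in every comparison. Each comparison used the quasi-likelihood test of edgeR on counts, with Benjamini-Hochberg adjustment over all genes tested. A gene passed the test at an adjusted p of 0.05 or less and was a differentially expressed gene (DEG) if its fold change was also at least 2. Shares of all genes are given for this test on all libraries of a comparison. Counts under other fits, without a library or by an unadjusted p have no such share beside them.

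Levels are given as FPKM, the number of fragments scaled to the length of the gene and to the mapped fragments of the library. In the resveratrol group the order was headed by aagr-2 at a mean of 276 FPKM, and swt-7 at 190 stood apart from aagr-3 at 161 and aagr-1 at 153, whose ranges overlapped. In the sucrose-stearic acid group aagr-2 also came first, at 285 ± 6.50 FPKM (SD, n = 3), and aagr-3, aagr-1 and swt-7 followed at 164 ± 4.93, 161 ± 12.9 and 153 ± 8.61, with overlapping ranges between aagr-3 and aagr-1 and between aagr-1 and swt-7. In the stearic acid group swt-7 was at the head with 434 ± 24.3 FPKM, and swt-6 came next at 139 ± 4.20 with a range that overlapped that of aagr-3. In the sucrose group aagr-2 came first at a mean of 251 FPKM, with a range apart from that of aagr-3. Then came aagr-3 at 178, swt-7 at 172 and aagr-1 at 156, and each of these had a range that overlapped that of the next gene. In control worms swt-7 was the most abundant of the 10 genes, at 357 ± 20.2 FPKM, and aagr-3 followed at 122 ± 5.36. Next came fgt-1 at 87.8 ± 8.14, aagr-4 at 72.3 ± 10.4, aagr-2 at 54.9 ± 7.39, swt-6 at 45.8 ± 5.64, aagr-1 at 39.3 ± 4.05 and swt-1 at 37.9 ± 4.84, and in this stretch the ranges of neighbours in the order overlapped. The lowest in control were swt-3 at 27.7 ± 2.96 and swt-5 at 12.08 ± 0.988, each apart from its neighbours. In all 5 groups swt-5 was the lowest of the 10 genes.

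These FPKM values do not rest on the annotated exon lengths. The length that counts and FPKM imply was 326 bases for swt-7, where the annotated exons cover 809, against 2713 of 2986 bases for aagr-2. Levels per annotated exon length, in counts scaled to kilobases of exon and to library size, were available for 9 of the genes, and this scale was chosen after the data were seen. It put swt-7 at rank 5 of 9 in the sucrose group, with 71.1 ± 11.8, whereas its FPKM was at rank 3 of 10. In the resveratrol group it put swt-7 at rank 4 with 72.2 ± 5.07, below aagr-3 at 133 ± 4.13 and aagr-1 at 123 ± 12.8, which turns the order of their FPKM. In the stearic acid group it put swt-6 at rank 4 with 74.0 ± 5.47, below aagr-3 at 101 ± 2.08 and below aagr-2 at rank 3, which also turns the order of their FPKM. In control worms it kept swt-7 first at 151 ± 13.1 and aagr-3 next at 102 ± 3.01.

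With sucrose, the RNA of 3 of the 4 alpha-glucosidase genes and of fgt-1 rose and that of swt-7 fell. Of the 10 genes, 4 rose and 1 fell in the sucrose group against control at an adjusted p of 0.05 or less, where 9.63% and 8.78% of the 12745 tested genes did so. Among them aagr-1, aagr-2 and swt-7 were DEGs, and 9.18% of all genes were. Without the third control library 7 genes passed, 6 of them higher, and the number of DEGs stayed at 3. DESeq2 and a single fit of all 15 libraries also passed 7 genes, 6 of them higher. With limma 6 passed, of which 5 were higher. The shares of all genes in these other fits, and without the third control library, are not given here. The median log2 fold change of the 10 genes was 0.51, against -0.02 for all genes tested. Because whole worms were sequenced, a change in the number of cells that express a gene and a change in RNA per cell cannot be told apart. The paper reports that high concentrations of sucrose delayed egg laying and shortened the worms. The labels place all groups at the L4 stage, but developmental timing within it is not given. A difference in timing and a direct effect of treatment cannot be told apart.

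The 2 largest changes belonged to aagr-2 and aagr-1. FPKM of aagr-2 was 216, 235 and 302 in the sucrose group, against 60.9, 57.1 and 46.7 in control. Every sucrose library lay above every control library by a wide margin, and the fold change was 4.62 (log2 2.21 ± 0.17 SE, adjusted p = 3.9e-05). A gene for a major sperm protein, msp-31, lies inside aagr-2 on the same strand but shares no exon bases with it. The summed FPKM of the 29 rows named as major sperm proteins was 1160 to 1300 in the sucrose group and 1530 to 2540 in control, the opposite direction to aagr-2. With both treatments this sum was 1380 to 1730, against 1010 to 1380 with stearic acid alone, the same direction as aagr-2. Of 27 such rows tested there, 5 passed as higher and 1 as lower. Whether reads of msp-31 were counted for aagr-2 was not tested. For aagr-1, FPKM was 125, 145 and 198 in the sucrose group, against 40.8, 42.5 and 34.8 in control, a 4.03-fold rise (log2 2.01 ± 0.18 SE, adjusted p = 0.00011). The sucrose libraries spread more than the control ones, with a coefficient of variation of 24.1% for aagr-1 in the sucrose group and 10.3% in control, and the third sucrose library was the highest for both genes.

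The RNA of aagr-3 and aagr-4 moved less. FPKM of aagr-3 was 180, 171 and 184 in the sucrose group, against 122, 117 and 127 in control, and its 1.47-fold rise passed the test (log2 0.56 ± 0.09 SE, adjusted p = 0.0029). The groups did not overlap. FPKM of aagr-4 was 84.2, 75.7 and 81.5 in the sucrose group, against 81.3, 74.6 and 60.9 in control, where the groups overlapped and the difference did not pass (log2 0.17, 95% confidence interval -0.11 to 0.45, adjusted p = 0.39). The glucose transporter gene fgt-1 had 133, 124 and 125 FPKM in the sucrose group, against 96.7, 80.7 and 85.9 in control, a 1.49-fold rise with no overlap (log2 0.57 ± 0.10 SE, adjusted p = 0.0048).

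Among the SWEET genes, swt-7 fell to 207, 164 and 147 FPKM in the sucrose group, against 352, 379 and 339 in control. Every sucrose library lay below every control library, and the level was 2.06-fold lower (log2 -1.04 ± 0.13 SE, adjusted p = 0.00078). This change stood close to the 2-fold limit, and without the second control library or the third sucrose library it was -0.97 on the log2 scale, which still passed the test but was no longer a DEG. The other 4 SWEET genes did not pass. swt-5 had 16.8, 18.1 and 18.6 FPKM in the sucrose group, against 10.95, 12.5 and 12.8 in control (adjusted p = 0.056), and swt-6 had 63.8, 55.3 and 54.1 FPKM in the sucrose group, against 39.3, 49.0 and 49.1 in control (adjusted p = 0.062). Neither gene's groups overlapped, and without the third control library both passed, with adjusted p = 0.046 each. Both also passed with DESeq2 (adjusted p = 0.049 for swt-5 and 0.044 for swt-6) and in the fit of all 15 libraries (0.0093 for swt-5 and 0.0425 for swt-6), and limma passed swt-5 (0.027 and 0.031 with the 2 pseudocounts) but not swt-6 (0.17 and 0.19). swt-3 spread from 28.9 to 43.4 FPKM in the sucrose group, against 25.8 to 31.1 in control (adjusted p = 0.19). swt-1 had 21.7, 24.3 and 35.6 FPKM in the sucrose group, against 39.8, 32.4 and 41.5 in control (adjusted p = 0.24), and without the third sucrose library, the highest, it was lower at an adjusted p of 0.032.

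**Figure D1:**
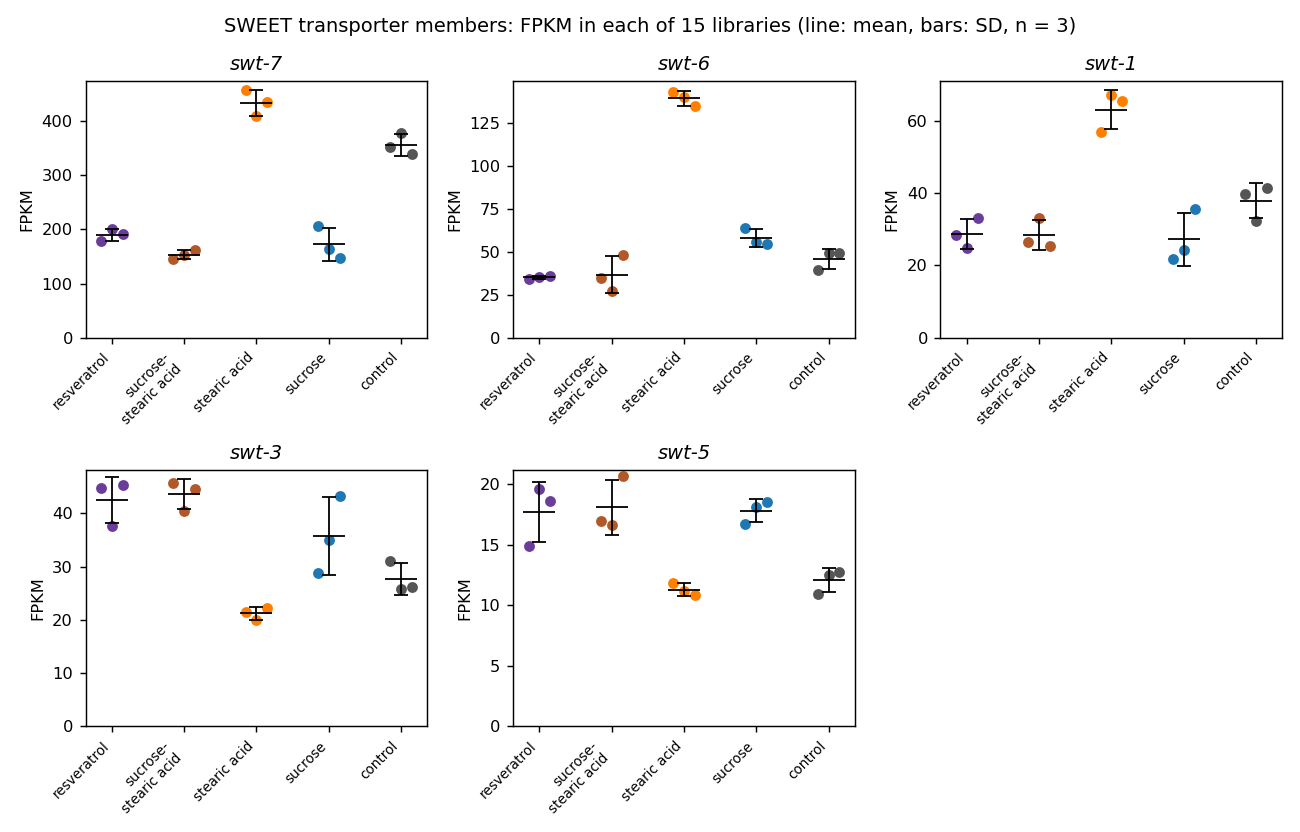
FPKM (vertical axes, from 0) of the 5 SWEET genes in each library of the resveratrol, sucrose-stearic acid, stearic acid, sucrose and control groups, with points for libraries and lines and bars for the mean and SD of 3 libraries. swt-7 sat at 145 to 207 FPKM in the 3 groups with sucrose and at 339 to 458 in the stearic acid and control groups, and swt-6 stood at 134 to 143 FPKM in the stearic acid group and at 63.8 or less in every other library.

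With stearic acid alone, swt-6, swt-1, aagr-1 and aagr-2 rose. Against control, 4 of the 10 genes rose and 0 fell, where 11.6% and 11% of the 12772 tested genes did so. By an unadjusted p under 0.05 there were 5 in all, of which swt-3 was lower. The share of all genes at that unadjusted cut is not given here. DESeq2 and limma also called 4 genes higher and 0 lower. swt-6 was the only DEG among the 10, against 7.88% of all genes. The median log2 fold change of the 10 genes was 0.15, against -0.03 for all genes tested. swt-6 had 143, 140 and 134 FPKM in the stearic acid group, against 39.3, 49.0 and 49.1 in control. The lowest stearic acid library was more than 2-fold above the highest control library, and the fold change was 2.80 (log2 1.49 ± 0.15 SE, adjusted p = 2.5e-05). swt-1 also rose, with 56.9, 67.1 and 65.4 FPKM in the stearic acid group, against 39.8, 32.4 and 41.5 in control, a 1.70-fold change without overlap (log2 0.76 ± 0.13 SE, adjusted p = 0.0020).

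The rises of aagr-2 and aagr-1 with stearic acid were smaller than 2-fold. FPKM of aagr-2 was 90.7, 87.6 and 102 in the stearic acid group, against 60.9, 57.1 and 46.7 in control (1.65-fold, log2 0.72 ± 0.13 SE, adjusted p = 0.0019). FPKM of aagr-1 was 59.7, 60.3 and 61.4 in the stearic acid group, against 40.8, 42.5 and 34.8 in control (1.50-fold, log2 0.59 ± 0.12 SE, adjusted p = 0.0047). In both cases the groups did not overlap. The stearic acid libraries of aagr-1 lay close together, with a coefficient of variation of 1.40%.

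For the other 6 genes the change with stearic acid did not pass. swt-7 had 458, 409 and 436 FPKM in the stearic acid group, against 352, 379 and 339 in control, which did not overlap (log2 0.23, 95% confidence interval -0.03 to 0.49, adjusted p = 0.17). swt-3 had 21.5, 19.97 and 22.3 FPKM in the stearic acid group, against 31.1, 25.8 and 26.3 in control, also without overlap (log2 -0.40, adjusted p = 0.076). Without the third control library swt-3 was lower at an adjusted p of 0.019, and 5 genes passed in place of 4. The intervals of fgt-1, swt-5, aagr-3 and aagr-4 all held 0, with log2 fold changes of 0.08, -0.04, 0.07 and -0.08.

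When sucrose and stearic acid were given together, 6 of the 10 genes rose and 1 fell against control, where 11% and 8.89% of the 12781 tested genes did so. The DEGs were aagr-1, aagr-2 and swt-7, and 9.57% of all genes were DEGs. The median log2 fold change of the 10 genes was 0.55, against -0.03 for all genes tested. Without the third control library the same 7 genes passed. FPKM of aagr-2 was 286, 292 and 279 in the sucrose-stearic acid group, against 60.9, 57.1 and 46.7 in control, a 5.41-fold rise (log2 2.44 ± 0.13 SE, adjusted p = 2.6e-06). FPKM of aagr-1 was 162, 173 and 148 in the sucrose-stearic acid group, against 40.8, 42.5 and 34.8 in control, a 4.28-fold rise (log2 2.099 ± 0.12 SE, adjusted p = 4.5e-06). swt-7 had 145, 153 and 162 FPKM in the sucrose-stearic acid group, against 352, 379 and 339 in control, and was 2.48-fold lower (log2 -1.31 ± 0.11 SE, adjusted p = 4.8e-05). In all 3 genes the libraries of the 2 groups were far apart.

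Smaller rises that passed were those of fgt-1, aagr-3, swt-3 and swt-5. fgt-1 had 127, 137 and 123 FPKM in the sucrose-stearic acid group, against 96.7, 80.7 and 85.9 in control (1.53-fold, adjusted p = 0.0025), and aagr-3 had 169, 164 and 159 FPKM in the sucrose-stearic acid group, against 122, 117 and 127 in control (1.40-fold, adjusted p = 0.0031). swt-3 had 45.8, 40.6 and 44.6 FPKM in the sucrose-stearic acid group, against 31.1, 25.8 and 26.3 in control (1.58-fold, adjusted p = 0.0085), and without the first sucrose-stearic acid library its adjusted p was 0.055. swt-5 had 17.0, 16.6 and 20.7 FPKM in the sucrose-stearic acid group, against 10.95, 12.5 and 12.8 in control (1.52-fold, adjusted p = 0.038). This call for swt-5, the gene with the fewest counts, was lost without any of the 3 sucrose-stearic acid libraries or without the first or the second control library, with adjusted p between 0.072 and 0.12.

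swt-1, swt-6 and aagr-4 did not pass in this comparison. swt-1 had 26.6, 33.0 and 25.3 FPKM in the sucrose-stearic acid group, against 39.8, 32.4 and 41.5 in control (log2 -0.42 ± 0.15 SE, adjusted p = 0.089). A fit with the replicate number as a block treats libraries of the same number as pairs, which the data bear out only in part. In that fit swt-1 was lower at an adjusted p of 0.037, and DESeq2 gave 0.044. swt-6 had 34.4, 26.8 and 48.1 FPKM in the sucrose-stearic acid group, against 39.3, 49.0 and 49.1 in control (log2 -0.23 ± 0.21 SE, adjusted p = 0.49), and the groups overlapped. aagr-4 had 87.0, 85.2 and 84.6 FPKM in the sucrose-stearic acid group, against 81.3, 74.6 and 60.9 in control (log2 0.25 ± 0.13 SE, adjusted p = 0.21).

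**Figure D2:**
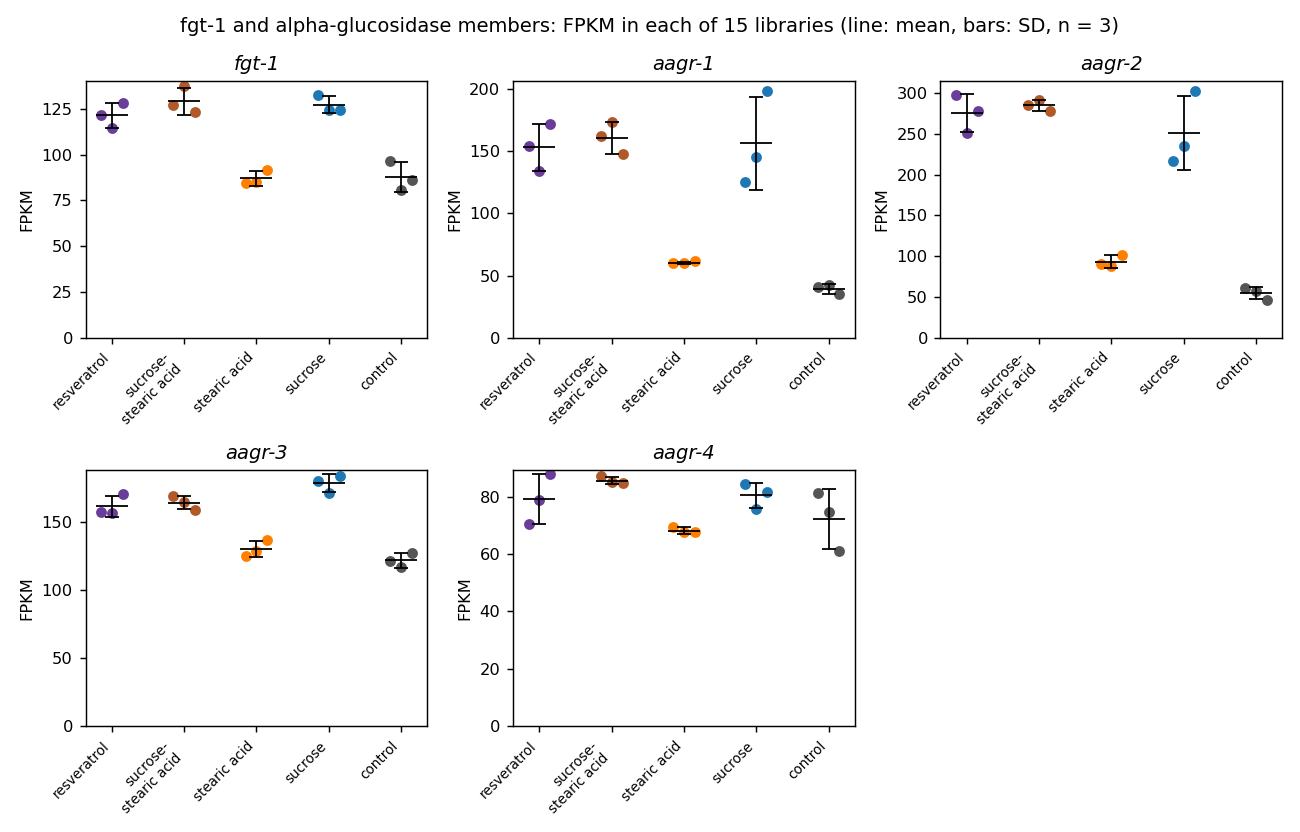
FPKM (vertical axes, from 0) of fgt-1 and the 4 alpha-glucosidase genes in each library of the resveratrol, sucrose-stearic acid, stearic acid, sucrose and control groups, with points for libraries and lines and bars for the mean and SD of 3 libraries. aagr-2 lay between 216 and 302 FPKM in the 9 libraries with sucrose, between 87.6 and 102 in the stearic acid group and between 46.7 and 60.9 in control, and aagr-4 had the flattest profile.

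**Figure D3:**
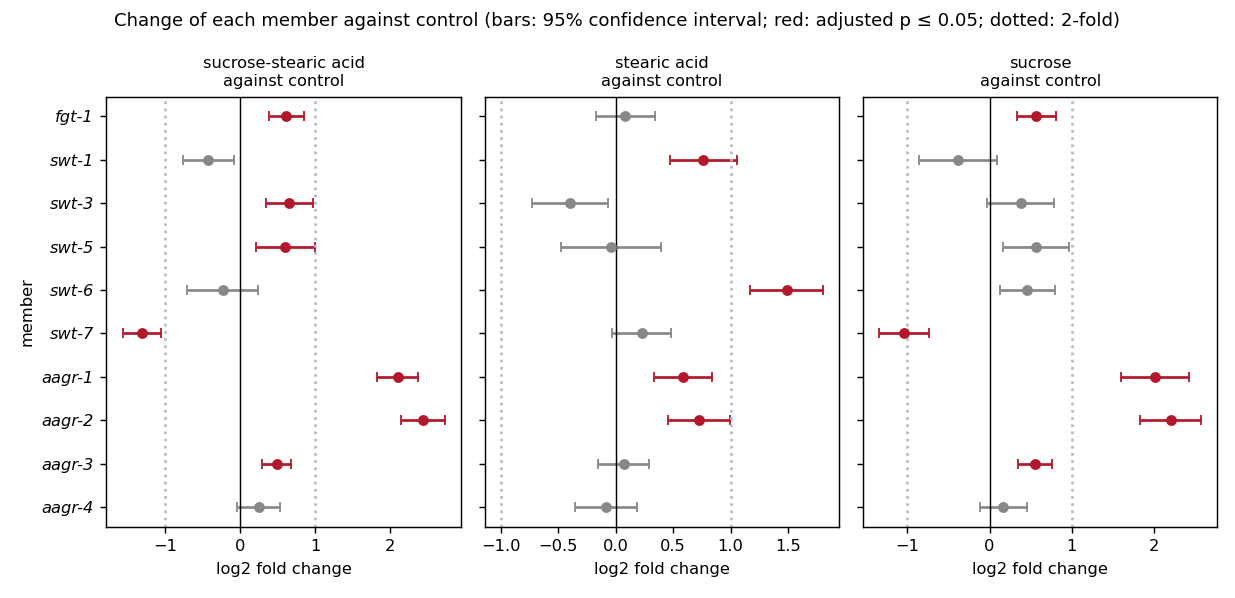
Log2 fold change of each of the 10 genes in the sucrose-stearic acid, stearic acid and sucrose groups against control (horizontal axes), with bars for 95% confidence intervals, red for an adjusted p of 0.05 or less and dotted lines at 2-fold. aagr-1 and aagr-2 were the farthest to the right in both panels with sucrose, at 2.01 to 2.44, and swt-6 was the farthest to the right in the panel of stearic acid alone, at 1.49.

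Added to stearic acid, sucrose changed all 10 genes. Between the sucrose-stearic acid and the stearic acid groups, 7 genes were higher and 3 lower, where 16% and 18.1% of the 12714 tested genes were, and 6 were DEGs against 9.95% of all genes. The median log2 fold change of the 10 genes was 0.47, against 0.01 for all genes tested. swt-6 had 34.4, 26.8 and 48.1 FPKM in the sucrose-stearic acid group, against 143, 140 and 134 in the stearic acid group, and was 3.33-fold lower (log2 -1.74 ± 0.16 SE, adjusted p = 7.2e-06). The highest library with sucrose was still far below the lowest without it. swt-7 was 2.93-fold lower, with 145, 153 and 162 FPKM in the sucrose-stearic acid group, against 458, 409 and 436 with stearic acid alone (adjusted p = 2.0e-07). swt-1 was 2.29-fold lower, with 26.6, 33.0 and 25.3 FPKM in the sucrose-stearic acid group, against 56.9, 67.1 and 65.4 with stearic acid alone (adjusted p = 1.0e-05). The 3 genes that fell were thus all SWEET genes, and the other SWEET genes rose. swt-3 was 2.06-fold higher (log2 1.04, adjusted p = 1.2e-05) and swt-5 was 1.55-fold higher (log2 0.63, adjusted p = 0.0067).

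The alpha-glucosidase genes were higher in the sucrose-stearic acid group than in the stearic acid group without exception. The fold change was 3.26 for aagr-2 (adjusted p = 2.0e-08), 2.83 for aagr-1 (adjusted p = 8.3e-08), 1.32 for aagr-3 (adjusted p = 0.0015) and 1.25 for aagr-4 (adjusted p = 0.0052). This was the only comparison in which aagr-4 passed, with 87.0, 85.2 and 84.6 FPKM in the sucrose-stearic acid group, against 69.4, 67.5 and 67.5 in the stearic acid group. fgt-1 was 1.44-fold higher (log2 0.52 ± 0.08 SE, adjusted p = 0.0004). Each of these 10 calls held under every other fit that was tried and without any of the 6 libraries.

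Added to sucrose, stearic acid changed none of the 10 genes at an adjusted p of 0.05. In this comparison 0.215% of the 12582 tested genes were higher and 0.23% lower in the sucrose-stearic acid group than in the sucrose group, and 0.215% were DEGs. By an unadjusted p under 0.05, a cut with no share of all genes beside it, there was 1 of the 10, swt-6. It had 34.4, 26.8 and 48.1 FPKM in the sucrose-stearic acid group, against 63.8, 55.3 and 54.1 in the sucrose group. Its log2 fold change was -0.69 (95% confidence interval -1.12 to -0.27, adjusted p = 0.16). The groups did not overlap, and DESeq2 called swt-6 at an adjusted p of 0.015, while limma called 0 of the 10 genes. Without the third sucrose library, in which aagr-2 was highest, aagr-2 was higher in the sucrose-stearic acid group at an adjusted p of 0.024. The widest interval was that of swt-1, -0.49 to 0.43, and the narrowest were those of fgt-1 (-0.10 to 0.20), aagr-3 (-0.21 to 0.08) and aagr-4 (-0.08 to 0.24). The median log2 fold change was 0.04, against -0.004 for all genes tested.

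The interaction of sucrose and stearic acid, the amount by which the log2 change with both departs from the sum of the changes with each alone, was tested in the 12 libraries without resveratrol. It passed for 3 of the 10 genes, 1 positive and 2 negative, where 7.05% of the 13094 tested genes were positive and 8.59% negative. For swt-6 it was -2.21 ± 0.24 SE (adjusted p = 7.2e-05). The 3 changes behind it were a log2 fold change of -0.23 with both, 1.49 with stearic acid and 0.46 with sucrose. This call held in all 19 other fits, with values between -2.44 and -2.02. For swt-1 the interaction was -0.82 ± 0.25 SE (adjusted p = 0.038), from changes of -0.42 with both, 0.76 with stearic acid and -0.39 with sucrose. For swt-3 it was 0.66 ± 0.20 SE (adjusted p = 0.044), from changes of 0.66 with both, -0.40 with stearic acid and 0.38 with sucrose. The calls of swt-1 and swt-3 were close to the threshold and were lost in 11 and 13 of the 19 other fits. That of swt-1 was lost without the second or the third control library, the third sucrose library, any stearic acid library, or the first or the third sucrose-stearic acid library (adjusted p between 0.052 and 0.089). That of swt-3 was lost without the first or the second control library, the first or the second sucrose library, or any library of the stearic acid and sucrose-stearic acid groups (adjusted p between 0.052 and 0.099).

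For 3 more genes the interaction was negative with an unadjusted p under 0.05 and did not pass after adjustment. These were swt-7 at -0.52 (adjusted p = 0.060), aagr-2 at -0.51 (adjusted p = 0.072) and aagr-1 at -0.51 (adjusted p = 0.10). Without the first sucrose library aagr-1 and aagr-2 passed, at -0.65 (adjusted p = 0.035) and -0.61 (adjusted p = 0.037). aagr-2 also passed without the first control library (adjusted p = 0.041), and swt-7 passed without the second control library (adjusted p = 0.046) and without the third sucrose library (adjusted p = 0.032). With all 12 libraries, swt-7 passed by DESeq2 (adjusted p = 0.035), and it passed in the fit of all 15 libraries (adjusted p = 0.0365). The other 4 genes had intervals that held 0.

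Resveratrol, a plant polyphenol, changed none of the 10 genes at an adjusted p of 0.05 when it was added to sucrose and stearic acid. The share of all 12591 tested genes that were higher in the resveratrol group than in the sucrose-stearic acid group was 0.0159%, all of them DEGs, and 0% were lower. DESeq2 and limma called none of the 10 genes either. By an unadjusted p under 0.05, a cut with no share of all genes beside it, there was 1, swt-7. It had 178, 201 and 191 FPKM in the resveratrol group, against 145, 153 and 162 in the sucrose-stearic acid group. The groups did not overlap, and the log2 fold change was 0.30 (95% confidence interval 0.10 to 0.51, adjusted p = 0.9993). aagr-2 had 299, 252 and 278 FPKM in the resveratrol group, against 286, 292 and 279 in the sucrose-stearic acid group (log2 -0.08, interval -0.24 to 0.09). aagr-1 had 154, 134 and 172 FPKM in the resveratrol group, against 162, 173 and 148 in the sucrose-stearic acid group (log2 -0.10, interval -0.32 to 0.12). fgt-1 had 122, 114 and 128 FPKM in the resveratrol group, against 127, 137 and 123 in the sucrose-stearic acid group (log2 -0.08, interval -0.23 to 0.08). All 10 intervals lay within 2-fold in either direction, and the median log2 fold change was -0.05, against -0.0002 for all genes tested. swt-6 had the widest interval, -0.47 to 0.36, and its libraries ran from 34.1 to 35.8 FPKM in the resveratrol group, against 26.8 to 48.1 in the sucrose-stearic acid group.

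**Figure D4:**
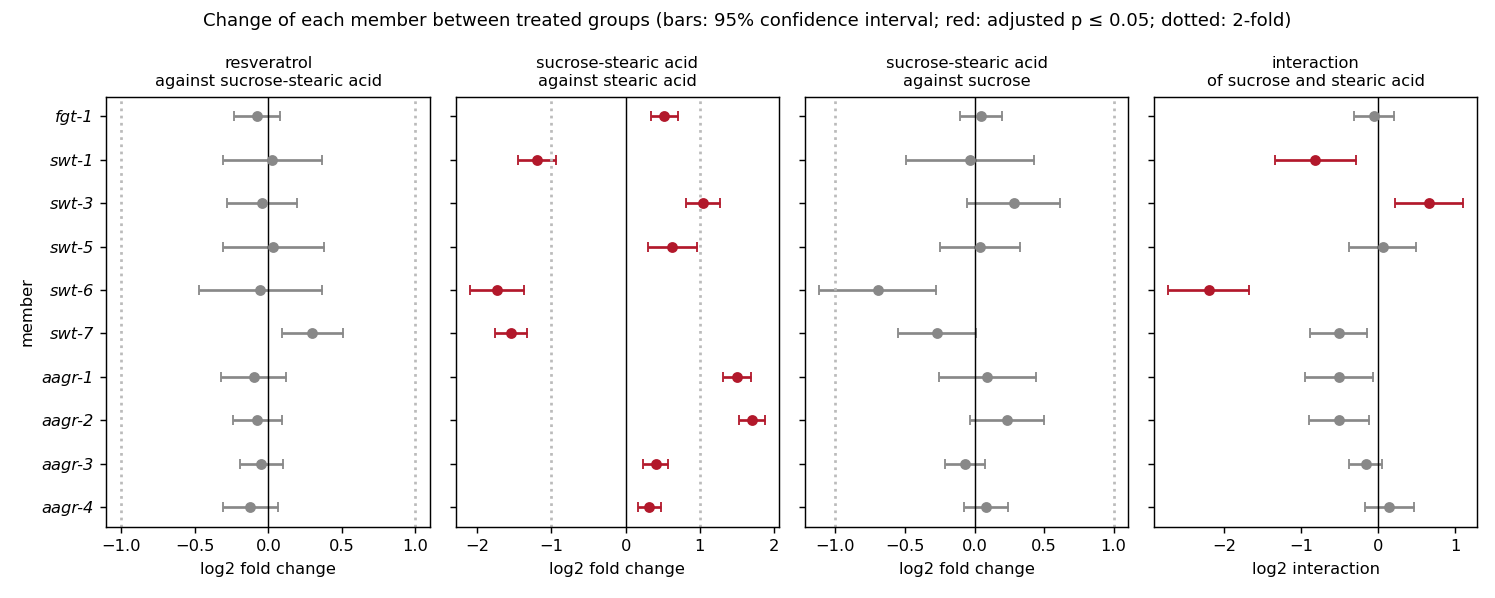
Log2 fold change of each of the 10 genes in the resveratrol group against the sucrose-stearic acid group and in the sucrose-stearic acid group against the stearic acid and the sucrose groups, and the interaction of sucrose and stearic acid on the log2 scale (horizontal axes, each with its own range), with bars for 95% confidence intervals, red for an adjusted p of 0.05 or less and dotted lines at 2-fold. All 10 genes are red only where sucrose is added to stearic acid, and swt-6 has the most negative interaction, at -2.21.

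Shares within the families differed between groups. swt-7 had the highest share of the SWEET sum in all 5 groups, whereas the highest share of the alpha-glucosidase sum belonged to aagr-2 in the groups with sucrose and to aagr-3 in the stearic acid and control groups. The SWEET genes summed to 314 ± 12.4 FPKM in the resveratrol group, 280 ± 18.3 in the sucrose-stearic acid group, 669 ± 21.7 in the stearic acid group, 311 ± 23.3 in the sucrose group and 480 ± 16.0 in control. swt-7 held 54.8 ± 1.55% of this sum in the sucrose-stearic acid group, 64.9 ± 1.55% in the stearic acid group, 55.2 ± 5.99% in the sucrose group and 74.2 ± 1.83% in control. swt-6 held 20.8 ± 0.761% in the stearic acid group and 9.54 ± 1.12% in control, and swt-3 held 15.6 ± 1.22% in the sucrose-stearic acid group and 5.79 ± 0.719% in control. The alpha-glucosidase genes summed to 670 ± 44.3 FPKM in the resveratrol group, 696 ± 23.2 in the sucrose-stearic acid group, 352 ± 13.5 in the stearic acid group, 666 ± 86.6 in the sucrose group and 288 ± 17.6 in control. aagr-2 held 41 ± 0.533% of this sum in the sucrose-stearic acid group, 37.5 ± 1.89% in the sucrose group and 19 ± 1.47% in control, while aagr-3 held 23.6 ± 0.523% in the sucrose-stearic acid group, 27.0 ± 2.89% in the sucrose group and 42.4 ± 4.16% in control. With the annotated exon lengths swt-7 held 44.7 ± 1.80% in the sucrose-stearic acid group and 66.9 ± 1.84% in control, and aagr-2 held 43 ± 0.57% in the sucrose-stearic acid group and 19.8 ± 1.40% in control.

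**Figure D5:**
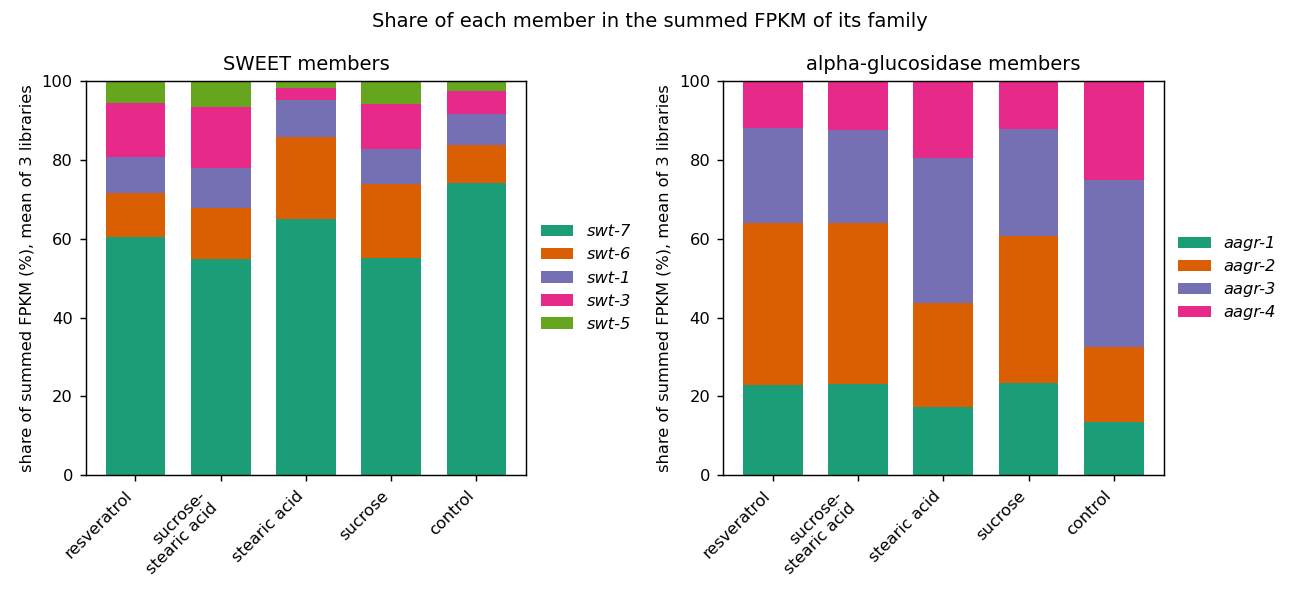
Mean share of each gene in the summed FPKM of its family (vertical axes, percent, 3 libraries per group), for the SWEET genes on the left and the alpha-glucosidase genes on the right, in the resveratrol, sucrose-stearic acid, stearic acid, sucrose and control groups. The swt-7 share was 54.8% to 60.5% in the 3 groups with sucrose and 74.2% in control, and the aagr-2 share was 37.5% to 41.2% in the groups with sucrose and 19% in control.

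The 10 genes were also compared with each other across the 15 libraries. The log2 CPM values of aagr-1 and aagr-2 had a Pearson r of 0.994 with each other, and fgt-1 had r of 0.955 with aagr-1, 0.957 with aagr-2 and 0.960 with aagr-3. swt-7 ran against them, with r of -0.922 with aagr-1 and -0.924 with fgt-1. swt-6 and swt-1 had r of 0.707 with each other, while r of swt-6 was -0.417 with aagr-1 and -0.418 with aagr-2. The highest r of aagr-4 was 0.732, with fgt-1. These values describe 15 libraries that share 5 treatments, so they carry the differences between groups.

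The genes whose log2 CPM ran most like a member over these libraries were taken for the 6 genes that were DEGs in some comparison, among the 13177 genes that passed the filter. For aagr-1 they were C05D12.2, asns-2, annotated as an asparagine synthase, and T02B11.4, with r of 0.991 to 0.992. For aagr-2 they were ugt-53, a UDP-glucosyltransferase by annotation, C05D12.2 and K08C7.4, each with r of 0.992. For swt-7 they were vem-1, ugt-9 and H25K10.1, with r of 0.972 to 0.978. swt-1 was most like cest-24, dct-1 and frm-7 (r of 0.965 to 0.971), swt-3 most like B0035.13, nuc-1 and svct-1 (r of 0.952 to 0.976), and swt-6 most like ZK1127.6, Y58A7A.5 and K10D11.2 (r of 0.932 to 0.941).

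Other genes of the same families and pathways were counted from the annotation of the deposited table. The SWEET domain was in 1 more gene, swt-4, which passed only between the sucrose-stearic acid and the stearic acid groups (log2 0.60 ± 0.17 SE, adjusted p = 0.015), and its log2 fold change was -0.49 with stearic acid (adjusted p = 0.086) and 0.01 with sucrose (adjusted p = 0.98) against control. No gene outside the 4 aagr genes carried the family 31 domain. The sugar transporter domain of fgt-1 was in 56 other genes, of which 7 were higher and 6 lower in the sucrose-stearic acid group, 5 higher and 7 lower in the stearic acid group and 6 higher and 6 lower in the sucrose group, each against control and out of 55 tested. The shares of all tested genes were 11% higher and 8.89% lower with both, 11.6% and 11% with stearic acid and 9.63% and 8.78% with sucrose, so the shares in this list were near those of all genes. Their median log2 fold change was 0.07 with both, -0.0002 with stearic acid and 0.12 with sucrose. Between the sucrose-stearic acid and stearic acid groups 12 were higher and 10 lower, where 16% and 18.1% of all genes were. With resveratrol, against the sucrose-stearic acid group, edgeR and DESeq2 called 0, with 2 at an unadjusted p under 0.05, and between the sucrose-stearic acid and sucrose groups edgeR called 0 and DESeq2 1, with 7 at an unadjusted p under 0.05.

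In that domain list hmit-1.1, a transporter of myo-inositol with protons, stood out with 320, 305 and 252 FPKM in the sucrose-stearic acid group, 7.91, 8.64 and 8.10 in the stearic acid group, 272, 277 and 330 in the sucrose group and 14.2, 14.9 and 14.5 in control. Its log2 fold change against control was 4.22 ± 0.13 SE with both (adjusted p = 1.5e-07) and 4.24 ± 0.13 SE with sucrose (adjusted p = 1.1e-06). By comparison fgt-1, with the same domain, rose by 0.62 with both and by 0.57 with sucrose. Of the other DEGs named by rule, C18H9.5 fell by 1.69 with both and by 1.48 with sucrose on the log2 scale. F23F12.13 rose by 1.14 with both, and ZK892.3 fell by 1.14 with sucrose. C44C10.3 and Y57G11C.23 fell by 1.63 and 1.39 with stearic acid. These genes had low levels. Mean FPKM in control was 6.53 for C18H9.5, 4.58 for F23F12.13, 2.13 for ZK892.3, 4.58 for C44C10.3 and 2.37 for Y57G11C.23. Between the sucrose-stearic acid and stearic acid groups slc-17.5 fell by 1.56 and C18H9.5 by 2.0. The interaction was largest for C44C10.3 at 1.65, K09C4.5 at -1.42 and slc-17.5 at -0.98, and K09C4.5 had the pattern of swt-6, with 8.58 ± 1.27 FPKM in the sucrose-stearic acid group, 23.0 ± 0.492 in the stearic acid group, 11.4 ± 0.142 in the sucrose group and 11.3 ± 3.22 in control.

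Of the 15 genes under starch and sucrose metabolism apart from aagr-1, 3 were higher and 3 lower in the sucrose-stearic acid group, 1 higher and 4 lower in the stearic acid group and 2 higher and 2 lower in the sucrose group against control. Of all tested genes 11% were higher and 8.89% lower with both, 11.6% and 11% with stearic acid and 9.63% and 8.78% with sucrose. Their median log2 fold change was -0.22 with both, -0.04 with stearic acid and 0.03 with sucrose. The DEGs were 2 trehalase genes, whose enzymes split trehalose into glucose. tre-3 rose by 1.41 with both (adjusted p = 4.8e-05) and by 1.47 with sucrose (adjusted p = 0.0003), with 62.1 ± 5.55 FPKM in the sucrose-stearic acid group, 65.2 ± 13.2 in the sucrose group and 21.8 ± 1.25 in control. tre-5 fell by 1.27 with both, by 1.27 with stearic acid and by 1.21 with sucrose, and its interaction was 1.17 (adjusted p = 0.0011), while that of ugt-48 was -0.68 (adjusted p = 0.044).

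Among 5 genes under galactose metabolism apart from aagr-1, Y39G8B.1, an aldehyde reductase by annotation, rose by 1.45 on the log2 scale with both (adjusted p = 1.1e-05) and by 1.47 with sucrose (adjusted p = 3.5e-05). pfk-2, a 6-phosphofructokinase by annotation, fell by 1.32 with stearic acid and by 1.02 with sucrose, at 1.34 ± 0.0525 FPKM in the stearic acid group, 1.58 ± 0.279 in the sucrose group and 3.19 ± 0.468 in control, and its interaction was 1.89. Of 3 genes with an alpha amylase domain, 1 was higher and 1 lower with stearic acid against control, where 11.6% and 11% of all tested genes were. C50B6.7 was a DEG, with 2.77 ± 0.114 FPKM in the stearic acid group and 8.94 ± 0.600 in control, a fall by 1.76 on the log2 scale. atgp-1, of solute carrier family 3 by annotation, had 111 ± 14.3 FPKM in the stearic acid group and 68.2 ± 2.13 in control. The interaction passed for C50B6.7 at 1.33 and for atgp-1 at -0.82. With resveratrol 0 genes passed in each of these 3 lists by edgeR and by DESeq2, and at an unadjusted p under 0.05 there was 1 under starch and sucrose metabolism, 1 under galactose metabolism and 0 with an alpha amylase domain.

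Tissue markers moved with some of the same treatments. The summed FPKM of 5 hypodermis markers, all cuticle collagens, lay between 1820 and 2110 in the resveratrol group, 1700 and 2150 in the sucrose-stearic acid group, 850 and 875 in the stearic acid group, 1650 and 1850 in the sucrose group and 1120 and 1330 in control. All 5 passed as higher in the sucrose-stearic acid group than in the stearic acid group, and against control 3 were higher with both, 2 lower with stearic acid, and 2 higher and 1 lower with sucrose. That of 5 intestine markers was 310 to 349 in the resveratrol group, 317 to 358 in the sucrose-stearic acid group, 312 to 333 in the stearic acid group, 360 to 369 in the sucrose group and 321 to 464 in control, and against control 1 was higher and 1 lower with both, 2 were higher and 2 lower with stearic acid, and 1 was higher and 1 lower with sucrose. Between the sucrose-stearic acid and stearic acid groups 2 intestine markers were higher and 2 lower. The 3 germline markers summed to 167 to 207 FPKM in the sucrose-stearic acid group, 161 to 182 in the stearic acid group, 160 to 212 in the sucrose group and 211 to 352 in control. Against control 0 of them passed with both or with sucrose, and 1 was lower with stearic acid. Between the sucrose-stearic acid and stearic acid groups 1 germline marker was higher. The 5 oocyte markers summed to 615 to 749 in the sucrose-stearic acid group, 678 to 813 in the stearic acid group, 594 to 948 in the sucrose group and 861 to 1500 in control, and against control 3 were lower with both and 2 with stearic acid. The 3 muscle markers summed to 691 to 924 in the sucrose-stearic acid group, 1070 to 1230 in the stearic acid group, 925 to 1010 in the sucrose group and 911 to 1200 in control, and the 4 neuron markers to 150 to 267 in all groups. Against control 0 muscle markers passed with both, stearic acid or sucrose, and 2 were lower in the sucrose-stearic acid group than in the stearic acid group. Of the neuron markers, 1 was higher with both and 1 with stearic acid against control. The 5 sperm markers are not summed here, since the FPKM of spe-11 ran from 9.06 to 1120 while its counts ran from 167 to 395. The part of these tissues in the changes of the 10 genes was not tested.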

How the data were processed

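Whole worms were sequenced on an Illumina instrument, and the series' table pairs raw counts with FPKM values. Both were made by the authors: per the paper's methods, ribosomal RNA, adapters, and short or poor reads were filtered out, TopHat mapped the remainder to WBcel235, and Cufflinks scaled fragments to FPKM. The deposited counts are not normalized, and how they were made (tool, strand, multiply mapped reads) is not given in the sources used here. Columns of the authors' own comparisons (fold changes, FDR) were not used.

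The members and lists were chosen with earlier results of these data known. Gene names came from the protein annotation, which named 14741 of 16196 genes. The tests ran in edgeR 4.0.16 under R 4.3.3 (filterByExpr, TMM, quasi-likelihood F test) on the 6 libraries of each comparison and on 12 for the interaction, and p-values were adjusted over all genes tested. Depth was 19433436 to 21400063 counts per library. Alternatives were DESeq2 1.42.0, its size factors, limma 3.58.1 on log2(FPKM + 1) and log2(FPKM + 0.1), no filter, all 15 libraries in 1 fit, a replicate block, other thresholds and leaving out each library. The code was tested on simulated data. An exact permutation test of 3 against 3 libraries cannot go below p = 0.1, so none was used. Named genes were every member, up to 3 DEGs with the largest change per list and comparison, and the 3 genes most correlated with each member that was a DEG (log2 CPM with a prior count of 2).

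The labels give replicate numbers only. Deviations from the group means were correlated between libraries of the same number in the sucrose-stearic acid and control groups. The r values were 0.135, 0.213 and 0.382, all over 0.1. By this rule, and on the data alone, the numbers were taken to pair those libraries. The second sucrose-stearic acid library had its highest r with the first control library, so the data bear out this pairing only in part. In each of the other 5 pairwise comparisons at least 1 of the 3 values was below 0.1.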

Additional observations from a re-analysis of the deposited data

Results flagged for a closer look

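Among the 10 genes, 3 were flagged because the effect of sucrose on them differed between worms with and without stearic acid in the interaction test of edgeR on 12 libraries. For swt-6 the interaction was -2.21 on the log2 scale. When sucrose was added to stearic acid swt-6 fell by 1.74, and without stearic acid its difference from control was 0.46 and did not pass. For swt-1 the interaction was -0.82 and for swt-3 it was 0.66. The calls of swt-1 and swt-3 depended on the fit and on single libraries.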

How the results depend on the processing

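Of 970 values from other fits of the log2 fold change or interaction of the 10 genes, 899 kept their direction and their side of the threshold, 30 lost the call, 21 gained one and 20 changed sign. No change of sign touched a call. Without a fold minimum 5, 4, 7 and 10 of the 10 genes were called with sucrose, stearic acid and both against control and with sucrose added to stearic acid, in place of 3, 1, 3 and 6. The number of interactions called fell to 1 of 10, swt-6, with limma on log2(FPKM + 0.1), with a replicate block and at an adjusted p of 0.01, rose to 4 with DESeq2 and in the fit of all 15 libraries, which both added swt-7, and ran from 1 to 4 when 1 library was left out. The block changed the call of swt-1 in the sucrose-stearic acid group against control, as given above, and those of swt-1 and swt-3 in the interaction (adjusted p = 0.062 and 0.061), and no other. Among the groups in the interaction, only the sucrose-stearic acid and control libraries were taken as paired by their numbers. Changes of sign with limma on log2(FPKM + 1) and log2(FPKM + 0.1) were those of fgt-1 with stearic acid against control (-0.00975 and -0.00981), swt-5 with resveratrol (-0.0307 and -0.0324), swt-1 with both treatments against sucrose (0.0773 and 0.0806) and the interaction of fgt-1 (0.0316 and 0.0318). Leaving out 1 library gave ranges across 0 with stearic acid against control for swt-5 (-0.114 to 0.0196) and aagr-4 (-0.194 to 0.0196), with resveratrol for swt-1 (-0.0845 to 0.159), swt-3 (-0.099 to 0.0382), swt-5 (-0.0975 to 0.113) and swt-6 (-0.233 to 0.173), and with both treatments against sucrose for swt-1 (-0.186 to 0.231), swt-5 (-0.00904 to 0.0723) and aagr-1 (-0.0477 to 0.305). With annotated exon lengths, a choice made after seeing the data, swt-7 held 50.2% of the SWEET sum in the resveratrol group, 44.7% in the sucrose-stearic acid group, 55.9% in the stearic acid group, 45.9% in the sucrose group and 66.9% in control, and aagr-2 held 43% of its family in the sucrose-stearic acid group. The cause of these differences was not tested. Depth limits swt-5 most, with 92 to 187 counts per library.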
